A study of Mus musculus with 9 samples.

Results

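The genes described here are 51 homeobox and paired-box regulators that lie outside the Hox clusters. They were taken by symbol from a list, and for each the probe set of 1 symbol that averaged highest over the 9 arrays was used. All 51 of 51 listed genes had such a probe set, out of 19935 genes in the table. They comprise 9 LIM homeobox genes, 7 Pax genes, 9 paired-like genes, 7 Dlx and Msx genes, 4 Nkx genes, 11 other genes of the Antennapedia class, 3 genes of the TALE class and 1 teashirt gene. RNA of the septum between the ventricles and of the right ventricle, dissected together from adult mouse hearts, was hybridised to Affymetrix arrays, 1 per heart. All mice had a mixed C57BL/6 background. The control group, called wild type, held 5 hearts whose genotype field gives floxed Ezh2 alleles without Cre, although their titles give a single floxed allele. The other group held 4 hearts with floxed Ezh2 alleles and the Mef2cAHF::Cre transgene, in which an enhancer of Mef2c drives Cre in progenitor cells of the anterior heart field. Cells of other lineages in this tissue are not targeted by that transgene, and every Ezh2-deficient heart but no wild-type heart carried Cre, so an effect of Cre and an effect of Ezh2 loss cannot be told apart.

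Homeodomain and paired-domain proteins bind DNA and set the identity of cells in the embryo. Most of their genes have CpG-rich promoters and are silent in most adult tissues, where Polycomb repressive complex 2, whose catalytic subunit is Ezh2, keeps many of them marked by methylation of histone H3. In the heart Isl1 marks progenitors of the second heart field, Shox2 acts in the sinus node, Pax3 acts in the cardiac neural crest, and Meis1 acts in cardiomyocytes, where it restrains their division.

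Values are log2 expression as deposited, and a difference is the Ezh2-deficient mean less the wild-type mean. The label of heart tissue was checked against cardiomyocyte genes: Myh6 averaged 14.03 and 13.95 and Tnnt2 14.04 and 13.95 in wild-type and Ezh2-deficient hearts. These genes do not check which part of the heart was taken. The atrial marker Myl7 ran from 6.968 in wild-type array 3 to 11.626 in Ezh2-deficient array 2. Myl4, also an atrial marker, ran from 7.885 to 12.114 in the same arrays. The Ezh2 probe set averaged 8.73 and 8.88 (difference 0.15, SE 0.07, limma adjusted p = 0.485) and so does not check the labels. Wild-type array 4 and Ezh2-deficient array 3 stood apart for the genes described here, as the values below show, and both came from females by their Y-linked genes, as did Ezh2-deficient array 1. The table holds no detection call, and levels of different probe sets are not compared. In whole tissue, fewer cells of a type and less RNA per cell cannot be told apart.

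None of the 51 genes passed the test. With limma over all 28815 probe sets, 0 of 51 had an adjusted p under 0.05, beside 0.0347% of all probe sets. At an unadjusted p under 0.05 there were 5, all higher in Ezh2-deficient hearts: Alx1, Prrx1, Dlx5, Pbx3 and Otx2. That is 9.80% of the 51, beside 10.7% of all probe sets in either direction and 5.23% in the higher direction. The share over both directions was therefore near that of the whole table, while in this fit the direction was one-sided. The 2 groups did not overlap for 3 genes, Alx1, Prrx1 and Dlx5, or 5.88%, beside 3.71% of all probe sets in either direction and 1.79% in the higher direction. The mean was higher in Ezh2-deficient hearts for 35 genes and lower for 16, with a median difference of 0.03, beside 48.4% higher and a median of -0.003 over all genes. With each array centred on its median 29 of 51 were higher (median 0.0185, beside -0.018 over all genes). With array weights 23 were higher (median -0.005, beside -0.0121 over all genes). The differences ran from -0.08 for En1 to 0.48 for Alx1, and only Alx1, Prrx1 and Dlx5 lay beyond 0.2 in size. For 50 of 51 genes the 95% interval of the difference lay inside a 1.5-fold change in either direction, and Alx1 was the exception. These bounds are for the array signal. No detection call shows which signals exceed background, so a bound on transcript change does not follow.

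**Figure D1:**
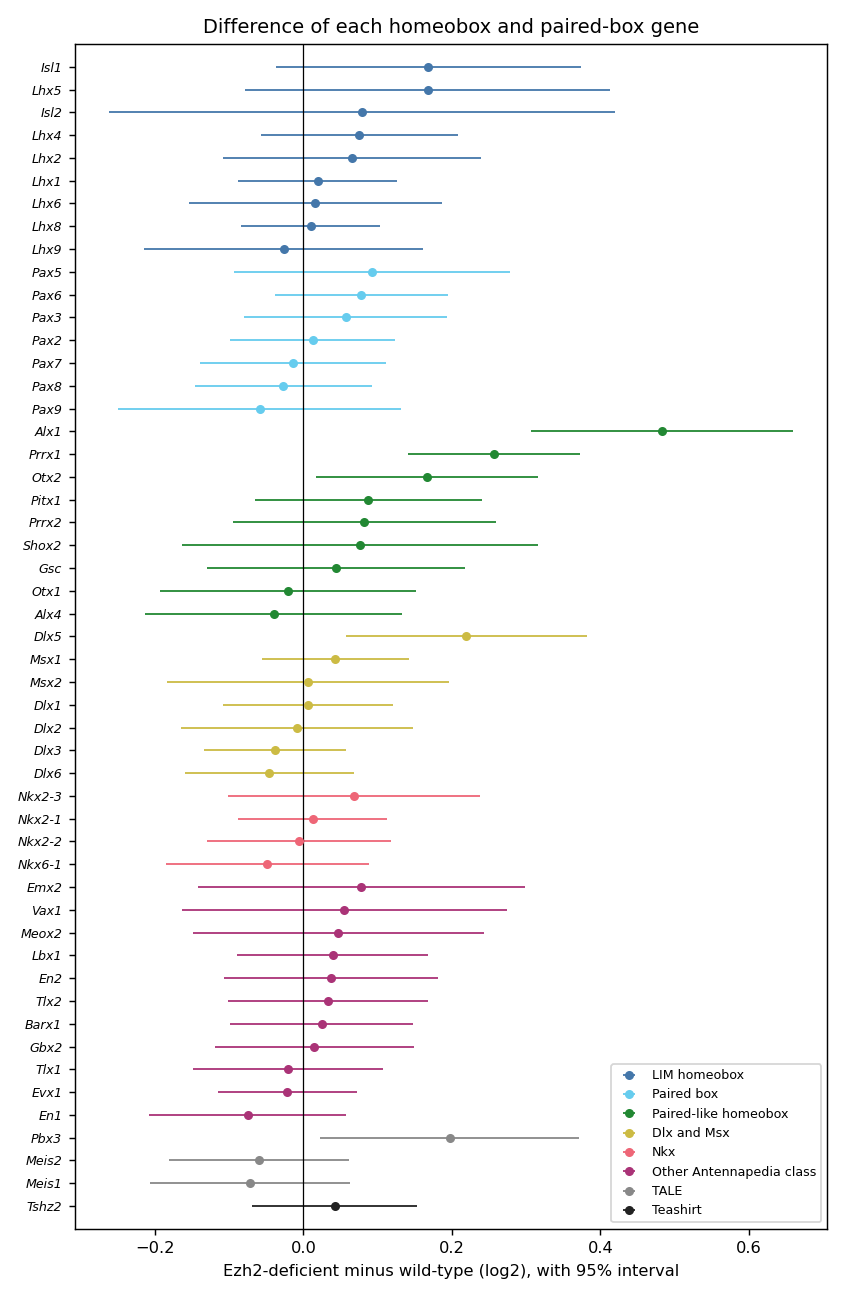
Difference between Ezh2-deficient and wild-type hearts (x axis, log2) for each of the 51 genes (rows), grouped and coloured by family; points are limma estimates and lines their 95% intervals. Alx1 at 0.48, Prrx1 at 0.26 and Dlx5 at 0.22 lie farthest to the right, and most other intervals cross 0.

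The paired-like genes, whose homeodomain resembles that of the Pax proteins, held the largest differences. Of 9 measured members 7 had a higher mean, 3 had an unadjusted p under 0.05 and 0 passed by limma, with a median difference of 0.08. Alx1, a regulator of craniofacial mesenchyme, read 6.31, 6.26, 6.45, 6.08 and 6.25 in wild-type arrays 1 to 5 and 6.77, 6.58, 6.84 and 6.83 in Ezh2-deficient arrays 1 to 4. Every Ezh2-deficient heart lay above every wild-type heart, with the narrowest gap between wild-type array 3 and Ezh2-deficient array 2. The means were 6.27 ± 0.13 (SD, n = 5) and 6.75 ± 0.12 (SD, n = 4). All values lay below the array medians of 7.19 to 7.25, as did all those of Dlx5, Otx2, Isl1, Shox2 and Pax3. Without a detection call they do not show that Alx1 or these other genes are expressed in this tissue. The difference of 0.48 (SE 0.08, 95% interval 0.31 to 0.66), a 1.40-fold higher level, had a limma adjusted p = 0.105 and an exact two-sided permutation p = 0.00794, the smallest that 5 hearts against 4 allow. The difference was 0.51 among samples with the letter e in their titles and 0.45 among those with the letter x. Letter e covers only wild-type arrays 1 and 2 and Ezh2-deficient arrays 1 and 4. Letter x covers wild-type arrays 3, 4 and 5 and Ezh2-deficient arrays 2 and 3. The labels do not give the meaning of the letters.

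Prrx1, which marks limb and other mesenchyme and is expressed in fibroblasts, read 9.49, 9.43, 9.50, 9.32 and 9.40 in wild-type and 9.72, 9.76, 9.60 and 9.67 in Ezh2-deficient hearts. The groups did not overlap, and the spread within each was small, with means of 9.43 ± 0.07 (SD, n = 5) and 9.69 ± 0.07 (SD, n = 4). The difference of 0.26 (SE 0.05, 95% interval 0.14 to 0.37; 1.20-fold) had a limma adjusted p = 0.129 and an exact permutation p = 0.00794. It was 0.23 in letter e and 0.27 in letter x. Its close relative Prrx2 differed by 0.08 (SE 0.08, adjusted p = 0.743) with overlapping groups.

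Fibroblast markers were higher beside Prrx1. All 9 of 9 measured fibroblast markers had a higher mean in Ezh2-deficient hearts, with a median difference of 0.52. By limma 0 passed and 6 (66.7%) had an unadjusted p under 0.05, beside 10.7% of all probe sets. The list mean of the fibroblast markers sets each array against the average of all arrays. It ran from -0.54 to 0.02 in wild-type and from 0.11 to 0.42 in Ezh2-deficient hearts, without overlap. Col1a1, a fibrillar collagen chain, averaged 10.73 and 11.57, and Pdgfra, a receptor on fibroblasts, 10.05 and 10.21. All 7 endothelial markers were also higher on average (median 0.27), and their list mean did not overlap between groups either (-0.45 to 0.08 and 0.12 to 0.26). Higher means were also found for 4 of 4 macrophage markers (median 0.22), 6 of 7 smooth muscle and pericyte markers (median 0.09) and 5 of 5 epicardial markers (median 0.11), with list means that overlapped. Of 6 cardiomyocyte markers 5 were lower on average (median -0.08). Wild-type array 5 had the lowest mean in 6 of 11 marker lists. In letter e the medians were 0.25 (fibroblast), 0.10 (endothelial), -0.02 (macrophage), 0.10 (smooth muscle and pericyte), -0.18 (epicardial) and -0.05 (cardiomyocyte). In letter x they were 0.69, 0.34, 0.44, 0.04, 0.33 and -0.13 in the same order. The part of these shifts in the values of Prrx1 and the other genes was not tested.

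Otx2, a regulator of the anterior brain, read 5.51, 5.74, 5.72, 5.58 and 5.69 in wild-type and 5.86, 5.73, 5.94 and 5.73 in Ezh2-deficient hearts. Ezh2-deficient arrays 1 and 3 lay above all wild-type hearts, and arrays 2 and 4 lay within their range. The difference was 0.17 (SE 0.07, unadjusted limma p = 0.0322, limma adjusted p = 0.413, exact permutation p = 0.0556). Shox2, a regulator of the sinus node, read 5.77, 5.91, 5.45, 5.60 and 6.01 in wild-type and 5.75, 5.84, 5.94 and 5.76 in Ezh2-deficient hearts. All 4 Ezh2-deficient values lay inside the wild-type range, and the difference was 0.08 (SE 0.11, adjusted p = 0.837) and 0.0015 without wild-type array 3. The lowest Shox2 value came from wild-type array 3, which also had the lowest mean of 4 atrial markers, -1.77 against the average of all arrays. That atrial mean ran from -1.77 to 0.69 in wild-type and from -1.08 to 0.998 in Ezh2-deficient hearts, so that the groups overlapped widely, and its part in Shox2 was not tested. Pitx1, Gsc, Alx4 and Otx1 differed by -0.04 to 0.09.

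The promoters of Prrx1 and Otx2 are shown because both genes had an unadjusted p under 0.05 and both hold TAATTA, a core recognition sequence of many homeodomain proteins. That of Isl1 is shown for contrast, as a CpG-rich window of the kind associated with Polycomb targets. The windows run from 250 bases before to 50 bases after the gene's start in RefSeq, build GRCm38.p6, each 5′ to 3′ on the gene's strand, and capitals mark CG and TAATTA. Where RefSeq lists several windows for a gene, as it does for Otx2 with 4, the first listed was taken.
Prrx1, chr1:163313601-163313900, minus strand: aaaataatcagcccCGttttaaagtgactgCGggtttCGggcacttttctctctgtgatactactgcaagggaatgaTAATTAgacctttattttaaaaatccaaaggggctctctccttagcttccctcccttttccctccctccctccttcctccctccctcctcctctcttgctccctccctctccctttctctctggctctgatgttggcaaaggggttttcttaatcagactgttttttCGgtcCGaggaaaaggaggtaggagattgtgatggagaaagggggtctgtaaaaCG
Otx2, chr14:48667595-48667894, minus strand: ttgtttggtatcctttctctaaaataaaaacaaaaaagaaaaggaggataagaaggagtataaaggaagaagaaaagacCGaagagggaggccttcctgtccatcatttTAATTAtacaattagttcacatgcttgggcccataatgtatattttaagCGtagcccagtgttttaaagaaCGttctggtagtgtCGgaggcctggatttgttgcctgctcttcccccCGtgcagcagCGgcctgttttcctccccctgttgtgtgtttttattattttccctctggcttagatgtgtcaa
Isl1, chr13:116309639-116309938, minus strand: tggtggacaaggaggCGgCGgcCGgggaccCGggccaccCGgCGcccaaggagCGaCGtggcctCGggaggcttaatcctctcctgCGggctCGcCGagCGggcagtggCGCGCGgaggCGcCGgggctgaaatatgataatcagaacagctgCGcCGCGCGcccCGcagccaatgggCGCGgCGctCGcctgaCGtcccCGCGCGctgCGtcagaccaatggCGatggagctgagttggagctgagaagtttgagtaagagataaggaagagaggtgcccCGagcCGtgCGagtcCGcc
Prrx1 and Otx2 hold 6 CG each, with observed over expected ratios of 0.36 and 0.46, and Isl1 holds 37 with a ratio of 1.05. TAATTA starts at position -173 from the gene start in Prrx1 and -141 in Otx2. The search covered both strands, on which this palindrome reads the same. A window was found for 38 of the 51 genes; Alx1, Dlx5 and Pbx3 are among the 13 without one. TAATTA occurred in 4 of 38 windows (10.5%), those of Prrx1, Otx2, Emx2 and Msx2, beside 2 of 53 windows of other homeobox genes (3.77%) and 4.67% of 17491 protein-coding genes. The 4 genes differed by 0.26, 0.17, 0.08 and 0.01. The 38 windows were richer in CG than those of all protein-coding genes, with a median of 17 against 13, and those of 53 other homeobox genes had a median of 20. Counting a window as CpG-rich at a ratio above 0.6 and a GC content above 50%, 21 of 38 (55.3%) qualified, beside 60.4% of the other homeobox genes and 45.5% of all protein-coding genes. Of these 21 genes 16 had a higher mean in Ezh2-deficient hearts (median difference 0.04), and of the 17 with other windows 10 did (median 0.01). This split is given as a description with no test. Over all 51 genes, those with a higher mean numbered 35 in the main fit and 25 without Ezh2-deficient array 3. The split by window was not made without that array.

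Dlx and Msx genes pattern the skull, jaw and limb, and Msx genes also respond to BMP signals. Of 7 measured, 4 had a higher mean and 1 (14.3%) had an unadjusted limma p under 0.05, beside 10.7% of all probe sets. Dlx5, a regulator of bone and branchial arches, read 6.96, 6.91, 6.82, 6.59 and 6.93 in wild-type and 7.08, 7.03, 7.09 and 7.04 in Ezh2-deficient hearts. The groups did not overlap, and the Ezh2-deficient values lay close together while wild-type array 4 lay below the rest. All Dlx5 values lay below the array medians and, without a detection call, do not show that Dlx5 is expressed in this tissue. The means were 6.84 ± 0.15 (SD, n = 5) and 7.06 ± 0.03 (SD, n = 4). The difference of 0.22 (SE 0.07, 95% interval 0.06 to 0.38; 1.16-fold) had a limma adjusted p = 0.33 and an exact permutation p = 0.0159, and it was 0.16 without wild-type array 4. Dlx6, the neighbour of Dlx5 on the chromosome, differed by -0.05 (SE 0.05, adjusted p = 0.783). Dlx1 and Dlx2, which also neighbour each other, differed by 0.01 and -0.01. Msx1, Msx2 and Dlx3 differed by 0.04, 0.01 and -0.04.

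The TALE genes Meis1, Meis2 and Pbx3 encode partners of Hox and other homeodomain proteins. Pbx3 read 7.84, 7.93, 7.87, 7.94 and 7.61 in wild-type and 8.06, 7.87, 8.12 and 8.09 in Ezh2-deficient hearts. Ezh2-deficient arrays 1, 3 and 4 lay above all wild-type hearts, and array 2 lay among them. The difference was 0.20 (SE 0.08, unadjusted limma p = 0.0305, limma adjusted p = 0.407, exact permutation p = 0.0556). It was 0.14 without wild-type array 5, which was the lowest. Meis1 read 9.47, 9.35, 9.37, 9.38 and 9.38 in wild-type and 9.36, 9.37, 9.13 and 9.41 in Ezh2-deficient hearts. Ezh2-deficient array 3 was the lowest of all and the other 3 lay within the wild-type range. The difference was -0.07 (SE 0.06, adjusted p = 0.70), and -0.01 without that array. Meis2 read 8.98, 9.06, 9.06, 9.18 and 9.14 in wild-type and 9.06, 9.06, 8.92 and 9.06 in Ezh2-deficient hearts, again lowest in Ezh2-deficient array 3. The groups overlapped, and the difference was -0.06 (SE 0.05, adjusted p = 0.724), or -0.02 without that array.

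**Figure D2:**
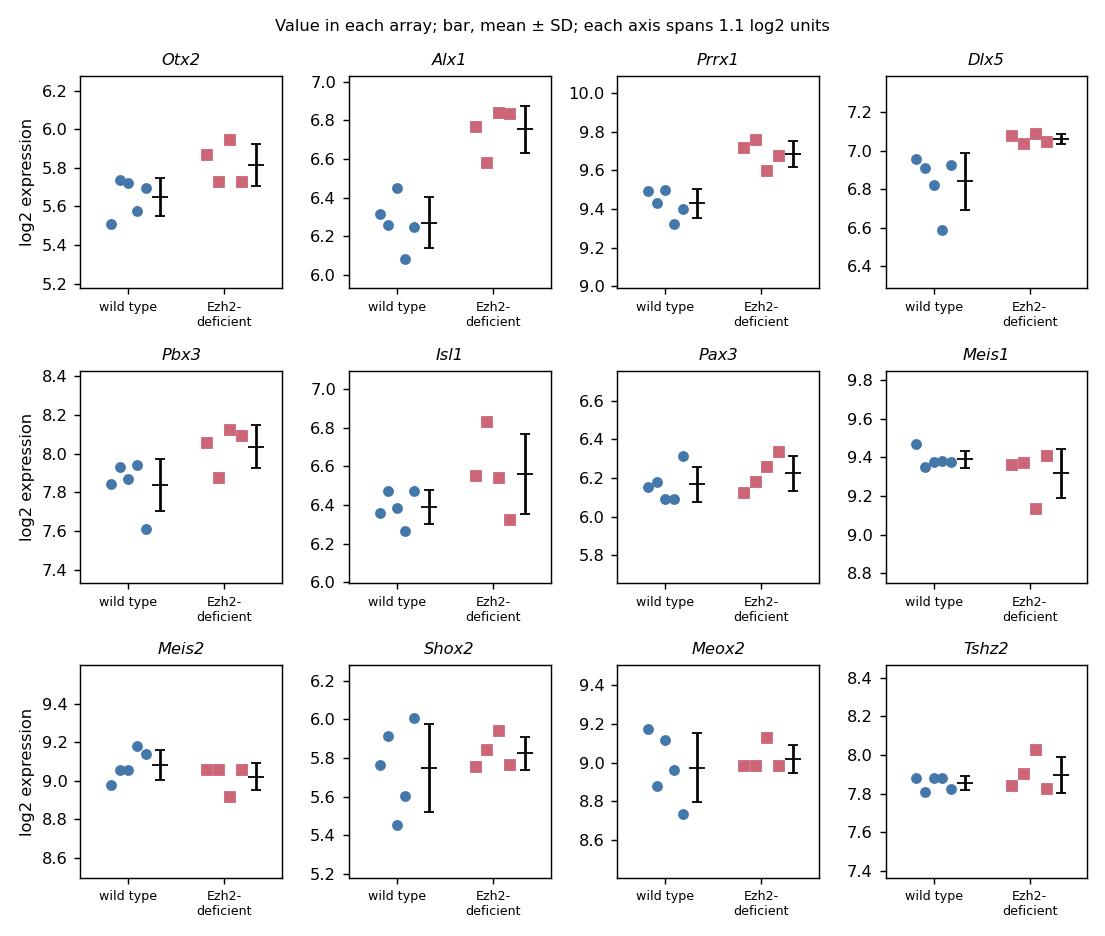
Log2 expression (y axes, each spanning 1.1 log2 units) of 12 genes in each wild-type heart (circles, 5 arrays) and Ezh2-deficient heart (squares, 4 arrays), with the mean ± SD beside each group. The groups are apart for Alx1, Prrx1 and Dlx5 and overlap for the other 9.

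LIM homeobox genes act in motor neurons, forebrain, limb and, for Isl1, heart progenitors. Of 9 measured, 8 had a higher mean and 0 had an unadjusted p under 0.05 (median difference 0.07). Isl1 read 6.36, 6.47, 6.39, 6.26 and 6.47 in wild-type and 6.55, 6.83, 6.54 and 6.32 in Ezh2-deficient hearts. Ezh2-deficient arrays 1, 2 and 3 lay above every wild-type heart and array 4 lay within their range, and the 95% interval of the difference ran from -0.04 to 0.37. The difference of 0.17 was 0.08 without Ezh2-deficient array 2, the highest, and was 0.02 in letter e and 0.31 in letter x. The atrial marker mean was highest in Ezh2-deficient array 2 (0.998), where Isl1 was highest, and -1.08 in Ezh2-deficient array 1, where Isl1 was second highest. Its part in the Isl1 values was not tested. Lhx5, which acts in the developing forebrain, differed by 0.17 (SE 0.11, adjusted p = 0.623), with -0.10 in letter e and 0.39 in letter x, and by 0.06 without Ezh2-deficient array 3. Of the 51 genes it alone had an unadjusted p under 0.05 in limma's test of the difference between letters, beside 6.12% of all probe sets, and 0 of 51 passed after adjustment over all probe sets. Isl2 had the widest interval of the 51, from -0.26 to 0.42, with wild-type values between 5.99 and 6.79. Lhx9 was lower on average by 0.03 and the other 5 LIM genes were higher by 0.01 to 0.08.

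Pax genes encode paired-domain proteins that specify neural crest, muscle, kidney, eye, B cells and thyroid. Of 7 measured, 4 had a higher mean and 0 had an unadjusted p under 0.05 (median difference 0.01). Pax3 read 6.16, 6.18, 6.09, 6.09 and 6.31 in wild-type and 6.13, 6.18, 6.26 and 6.34 in Ezh2-deficient hearts, a difference of 0.06 (SE 0.06, adjusted p = 0.774). The groups overlapped, and Ezh2-deficient array 4 alone lay above the wild-type range; without it the difference was 0.02. Pax7, the marker of skeletal muscle stem cells, differed by -0.01 (SE 0.06, 95% interval -0.14 to 0.11). Over the family the differences ran from -0.06 for Pax9 to 0.09 for Pax5. Markers of skeletal muscle had a median difference of 0.03 over 5 genes, and those of neurons and Schwann cells -0.01 over 5 genes, with 0 of 10 at an unadjusted p under 0.05.

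The Nkx genes and the other Antennapedia-class genes act mainly in brain, gut, thyroid and muscle. Of the 4 Nkx genes 2 had a higher mean (median 0.004), and of the 11 others 8 did (median 0.03); 0 of these 15 had an unadjusted p under 0.05. Meox2, a regulator of somite muscle that is also expressed in vascular cells, read 9.18, 8.88, 9.12, 8.96 and 8.73 in wild-type and 8.98, 8.98, 9.13 and 8.98 in Ezh2-deficient hearts. All Ezh2-deficient values lay within the wild-type range, and the difference was 0.05 (SE 0.09, adjusted p = 0.882). Tshz2, a zinc finger homeobox gene, read 7.88, 7.81, 7.88, 7.88 and 7.83 in wild-type and 7.84, 7.90, 8.02 and 7.82 in Ezh2-deficient hearts. Ezh2-deficient arrays 2 and 3 lay above the wild-type range and the other 2 within it, with a difference of 0.04 (SE 0.05, adjusted p = 0.797). Its second probe set differed by 0.02 (SE 0.11).

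The excess of higher means was smaller or absent without 1 or both of 2 arrays. Ezh2-deficient array 3 held the highest value of the 9 arrays for 22 of the 51 genes (43.1%), beside 18.8% of all genes, and lay above the gene's own mean for 44 of 51. Wild-type array 4 held the lowest value for 19 of 51 (37.3%), beside 19.0% of all genes, and lay above the gene's mean for 11. The 72 other homeobox genes measured shared this pattern: Ezh2-deficient array 3 was highest in 36.1% of them and wild-type array 4 lowest in 34.7%. Averaged over the 51 genes, the deviation was 0.11 in Ezh2-deficient array 3 and -0.11 in wild-type array 4, and between -0.02 and 0.04 in the other 7. Without Ezh2-deficient array 3, 25 of 51 genes had a higher mean and the median difference was -0.0003; without wild-type array 4, 29 of 51 did and the median was 0.01. Without both arrays, a choice made after seeing the data, 19 of 51 were higher and the median was -0.02, beside -0.01 over all genes. Within title letter e, to which neither array belongs, 18 of 51 were higher (median -0.02), and within letter x 38 of 51 (median 0.08). Both arrays have an x without a prime in their titles, and no other array does. The labels do not give the meaning of the prime. With a primed x, the mean deviation over the 51 genes was -0.016 and -0.011 in wild-type arrays 3 and 5. In Ezh2-deficient array 2, also with a primed x, it was -0.012. In Ezh2-deficient array 3 the means of 7 of 11 lists of cell type markers were also the highest of the 9 arrays: those of blood (1.67), epicardium (0.46), fibroblasts (0.42), macrophages (0.32), endothelium (0.26), skeletal muscle (0.14) and neurons and Schwann cells (0.07). That of 6 cardiomyocyte markers (-0.16) was the lowest. Their part in the high values of that array was not tested.

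**Figure D3:**
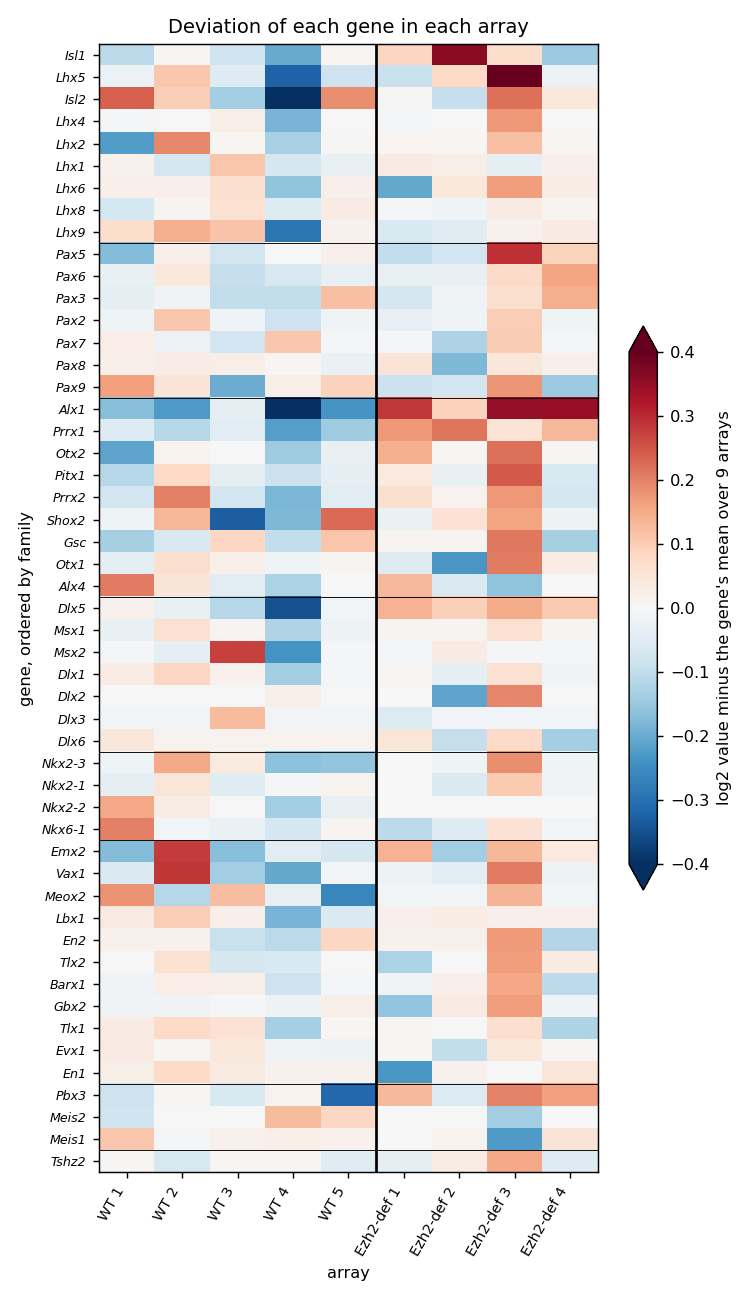
Deviation of each gene (rows, ordered by family) from its mean over 9 arrays (columns, WT for wild type and Ezh2-def for Ezh2-deficient), on the log2 scale, with red above and blue below the mean; colours end at 0.4. The column of Ezh2-deficient array 3 is mostly red and that of wild-type array 4 mostly blue, while Alx1, Prrx1 and Dlx5 differ across the groups as a whole.

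Equal values recurred in many of these genes, which bears on how a difference near 0 is read. In 13 of 51 genes (25.5%) at least 4 arrays shared 1 value to the third decimal, beside 17.0% of all genes. Dlx3 read 7.09 in 7 of 9 arrays, and Nkx2-2 read 6.72 in all 4 Ezh2-deficient hearts, so that its SD there was 0. The 5 genes with an unadjusted p under 0.05 were not among the 13.

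Other homeobox genes and the cofactors of homeodomain proteins were compared. Of 84 further homeobox genes outside the Hox, sine oculis and Iroquois families 72 were measured, and 52 had a higher mean (median 0.03), much as among the 51. By limma 0 passed, and at an unadjusted p under 0.05 there were 5 higher and 1 lower, 8.33%, beside 10.7% of all probe sets. Meox1, the relative of Meox2, averaged 8.57 ± 0.38 (SD, n = 5) and 9.50 ± 0.26 (SD, n = 4), a difference of 0.93 (SE 0.19, limma adjusted p = 0.129) with groups that did not overlap. Zfhx4, a zinc finger homeobox gene, differed by 0.37 (SE 0.08, adjusted p = 0.129) with groups apart. Groups were apart for these 2 genes alone, 2.78% of the 72, beside 3.71% of all probe sets. Hopx is an atypical homeodomain protein of cardiomyocytes that does not bind DNA. It was the 1 gene lower at an unadjusted p under 0.05 (-0.32, SE 0.08, limma adjusted p = 0.222). Nkx2-5, the cardiac homeobox gene, differed by -0.04 (SE 0.06, adjusted p = 0.855). Of 16 cofactors, among them the LIM-only proteins and the Groucho-type corepressors, 12 had a higher mean (median 0.03) and 0 passed by limma. At an unadjusted p under 0.05 there were 3 (18.8%), all higher, beside 10.7% of all probe sets (5.23% in the higher direction). These were Lmo4 (0.19, SE 0.05, adjusted p = 0.213), Tle3 (0.24, SE 0.08, adjusted p = 0.356) and Lmo2 (0.30, SE 0.12, adjusted p = 0.405).

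**Figure D4:**
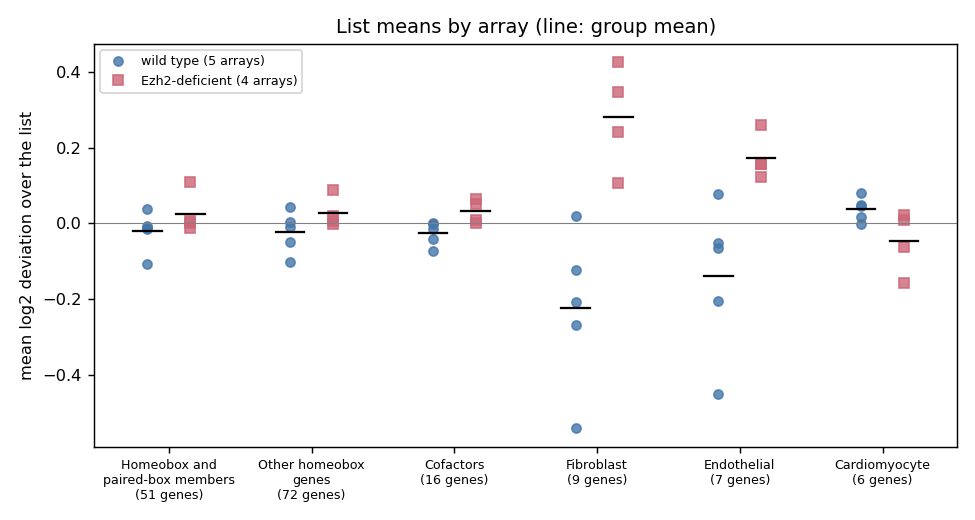
Mean log2 deviation of 6 gene lists (x axis) in each array (y axis, each gene set against its mean over all arrays), with circles for wild-type and squares for Ezh2-deficient hearts and a line at each group mean. The 51 homeobox and paired-box genes overlap between groups (-0.11 to 0.04 and -0.01 to 0.11), whereas the fibroblast markers do not (-0.54 to 0.02 and 0.11 to 0.42).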

How the data were processed

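Per the submitters' processing notes, the deposited log2 values were made by the authors with Affymetrix Power Tools and RMA, without stated versions or settings. The log2 scale was read from the range of 2.18 to 15.02 and the name of the method. RNA was extracted with TRIzol, per the labels' protocols. Of 28815 probe sets 21780 had 1 gene symbol in the platform annotation, 1605 several and 5430 none; those without a single symbol entered the fit unnamed. Array medians lay between 7.19 and 7.25.

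Groups came from the description labels; replicates were numbered in accession order, which pairs nothing. The labels speak of separate mice. The test was limma 3.58.1 (R 4.3.3; lmFit, then eBayes), two-sided, with only genotype in the model, and p-values were adjusted across the whole table by the Benjamini-Hochberg method with a threshold of 0.05. Named genes were also tested by exact permutation. The number of arrays limits the precision: standard errors of the 51 differences ran from 0.0418 to 0.153. The fit was tested on simulated data. Values in every array are given for genes at an unadjusted p under 0.05, genes whose groups did not overlap and a fixed set of 10. Members and lists were chosen with earlier results of these data known. Alternatives covered array omission, normalization, a filter at a mean of 6, title marks, Y-linked expression, array weights, the prior and the probe set.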

Additional observations from a re-analysis of the deposited data

Results flagged for a closer look

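In groups of 4 or 5 hearts, 22 of 102 sets of values held a heart that lay apart from the rest by Dixon's criterion, where chance flags about 1 in 20. Ezh2-deficient array 3 was the heart apart in 8 of them: it was high for Lhx2 (6.826), Lhx4 (7.346), Pax2 (6.829), Msx1 (7.472), Nkx2-3 (7.302), Meox2 (9.13) and Vax1 (7.624) and low for Meis2 (8.916). Ezh2-deficient array 2 was low for Pax8 (6.509) and high for Msx2 (6.641) and Lbx1 (7.934), and Ezh2-deficient array 1 was low for Dlx3 (7.046) and En1 (6.412). Wild-type array 4 was low for Lhx4 (6.985) and Lhx6 (7.389) and high for Dlx2 (6.642). Wild-type array 1 was high for Dlx6 (6.573), Nkx6-1 (7.681) and Meis1 (9.467). Wild-type arrays 2, 3 and 5 were high for Emx2 (5.378), Dlx3 (7.226) and Gbx2 (6.912). In several of these, such as Dlx2, Dlx3, Msx1 and Meox2, the other hearts of the group shared 1 value, so that a small gap was enough. None of Alx1, Prrx1, Dlx5, Pbx3 or Otx2 was among them.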

How the results depend on the processing

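By limma 0 of the genes passed in each of the 21 alternatives and at the second probe set of Tshz2, with 3 to 6 at an unadjusted p under 0.05. The count was 3 with the Y-linked mean as a covariate and 3 to 6 when 1 array was left out (3 without Ezh2-deficient array 1 or 3), against 5. Not all were higher in letter e (4 of 5) and without wild-type arrays 4 and 5 (3 of 4). The same held without wild-type array 4 and Ezh2-deficient array 3 (3 of 4). In the other alternatives all were higher. Alx1 came nearest to passing, with a limma adjusted p of 0.0583 to 0.651 and differences of 0.41 to 0.54. Prrx1 differed by 0.21 to 0.29 and Dlx5 by 0.13 to 0.28, each higher in all 21. The median difference of 0.03 was -0.022 in letter e, 0.0847 in letter x, -0.0196 without wild-type array 4 and Ezh2-deficient array 3, and -0.0003 to 0.05 when 1 array was left out. It was -0.005 with array weights, 0.0017 without wild-type arrays 4 and 5, 0.0163 without dim probe sets and 0.0185 with arrays centred on their medians. The median over all genes was -0.0121, -0.0137, -0.0018 and -0.018 in the same order. The sign turned for Meox2 without wild-type arrays 4 and 5 (-0.0365), in letter e (-0.043), with array weights (-0.0356) and without wild-type array 5 (-0.0125; -0.0125 to 0.0978 over the omission of each array). It turned for Tshz2 without Ezh2-deficient array 3 (-0.0003; -0.0003 to 0.067 over the omissions), in letter e (-0.014) and with array weights (-0.0008), and in letter e for Shox2 (-0.081) and Meis2 (0.0405). The cause was not tested. The filter on dim probe sets left 45 of the 51, and Otx2, Shox2 and Lhx5 were among those it removed. No paired analysis was possible because the replicate numbers only follow the order of the samples.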
